A study of Bos taurus with 6 samples.

Results

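The subject is the heat shock protein network of bovine cumulus cells, read across treatment with cetrorelix and without it. The genes were taken by symbol from the platform annotation: HSPA, HSPB, HSPD, HSPE, HSPH and HSP90A proteins, J proteins of the DNAJA, DNAJB and DNAJC classes, BAG proteins, the cytosolic chaperonin subunits TCP1 and CCT2 to CCT8, and the factors HSF1 and HSF2. The endoplasmic reticulum chaperones HSPA5, HSP90B1, DNAJB9, DNAJB11 and DNAJC3 were left out. This gave 77 genes of 15216 named on the array, measured by 119 probes, in a set of 23 heat shock proteins, 38 J proteins, 9 chaperonin genes, 5 BAG genes and 2 HSF genes.

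Cumulus cells, the somatic cells around the oocyte, came from 6 Holstein dairy cows that all received follicle-stimulating hormone (FSH) for 3 days, after which FSH was withheld for 68 h until recovery. The cetrorelix cells also had 12 mg of cetrorelix per day over 5 days, beginning on the second day of FSH, and the control cells had none. Cetrorelix is known as an antagonist of the receptor for gonadotropin-releasing hormone, although the labels call it an agonist, and it lowers the secretion of luteinizing hormone. Each of 6 two-colour arrays held both conditions, with 3 replicates per condition, each on a pair of arrays with the dyes exchanged. How the cows map onto the replicates is not stated in the labels, so the spread between replicates may in part be technical.

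Heat shock proteins are chaperones that hold or fold other proteins. J proteins bring unfolded chains to HSP70 and start its ATP cycle, BAG proteins and the HSP110 branch release the nucleotide from HSP70, and HSP90 finishes the maturation of clients that include the steroid hormone receptors. The cytosolic chaperonin is a ring of CCT subunits that folds actin and tubulin, HSPD1 and HSPE1 form the chaperonin of mitochondria, and HSF1 is the main transcription factor of the heat shock response. The comparison asks how the transcripts of this network stood in cumulus cells after cetrorelix, relative to cells that had only FSH and its withdrawal.

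Of the 77 genes, 67 were tested. The other 10 comprised 8 whose probes were above background on at most 2 of 6 arrays in either condition (HSPA12A, HSPA6, HSPB2, HSPB3, HSPB6, DNAJB13, DNAJC5B and DNAJC5G) and 2 with a marked spot on 1 array (DNAJB12 and DNAJB14). Of the 67, 47 were above background on all 6 arrays in both channels, and no tested probe was saturated. Where a gene had several tested probes, its brightest one was used. Ratios are log2, cetrorelix over control, with the SD over 3 replicates, and levels are normalized log2 intensities averaged over the pair of arrays of a replicate. HSPA1A and HSPA1B are near-identical copies and were joined under HSPA1A.

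Both slides must be kept in view for every value. Cetrorelix carried Cy5 on every array of 1 slide, here called the Cy5 slide, and Cy3 on every array of the other, called the Cy3 slide. The effects of slide and of dye cannot be told apart. Across tested probes, ratios turned the same way correlated at r = 0.27 to 0.67 between arrays of the same slide. Between the arrays of the same replicate on different slides they correlated at 0.08, 0.26 and -0.13 for replicates 1, 2 and 3, and the lowest correlation of any pair of arrays was -0.31. Per array, 40.9% to 70.9% of gene probes exceeded background for cetrorelix and 54.8% to 69.7% did for control.

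No gene of the network passed limma's test at adjusted p under 0.05, at which 4 of 32125 probes (0.0125%) were higher and 0 were lower, and 0.00806% of all genes passed in either direction. At an unadjusted p under 0.05, 4 of the 67 genes were higher in cetrorelix cells (5.97%, against 7.18% of all 12400 tested genes) and 9 were lower (13.4%, against 8.55%), so 13 differed in either direction, where 15.7% of all genes did. Among the 47 genes that were above background throughout, these are 8.51% higher and 19.1% lower, and among all 6033 genes with that property they are 13.6% and 15.0%. These shares use p-values from the fit over all tested probes. When only probes above background throughout were fitted, 4 genes of the network were lower instead of 9. The higher genes were CCT3, HSPB1, BAG3 and HSPA4, and the lower ones were CCT6A, TCP1, CCT4, HSPA9, DNAJA2, DNAJC2, DNAJC19, DNAJC10 and DNAJC15. Their adjusted p ran from 0.0833 to 0.418 in limma. The median log2 ratio of the 67 genes was -0.06, with 26 above 0 and 41 below, where all tested genes had -0.01 and 48.2% above 0.

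The lower genes depended on the replicate. Of the 67, 40 lay below 0 in replicate 1, 42 in replicate 2 and 29 in replicate 3, with medians of -0.11, -0.23 and 0.04. Of the 9 lower genes, 8 had their lowest ratio in replicate 2. With replicate 1, 2 or 3 left out the count of lower genes was 3, 3 and 14, and the lower share of all tested genes was 5.42%, 5.60% and 10.9%. On all 6 arrays the same sign was found for 2 higher genes (2.99%, against 4.01% of all genes) and 7 lower genes (10.4%, against 5.75%). The levels of the conditions did not overlap for 4 higher and 8 lower genes, where 6.63% and 9.47% of all genes met this. In these bulk samples, fewer cells of a type and less RNA per cell cannot be told apart.

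Among chaperonin genes, CCT3 lay apart from the other subunits. CCT3, the gamma subunit of the ring, had levels of 11.19, 11.12 and 10.86 in cetrorelix cells, against 10.33, 10.04 and 9.81 in control cells. All 3 cetrorelix levels were above all 3 control levels. The log2 ratio was 0.998 ± 0.12 (SD, n = 3), or 2.00-fold, with an unadjusted p of 8.38e-05 and limma adjusted p = 0.0833, and it was above 0 on 6 of 6 arrays. In a fit of the 6 single arrays blocked by replicate, limma's adjusted p was 0.0233, but the estimated correlation within replicates was -0.026, so that fit treated the arrays as nearly independent (0.0265 with no block). Without replicate 1, the adjusted p for the replicate averages was 0.419. Its single probe averaged 0.73 on the Cy5 slide and 1.26 on the Cy3 slide.

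The subunits CCT6A, TCP1 and CCT4 were lower in cetrorelix cells at the unadjusted threshold. CCT6A, the zeta subunit, had levels of 11.29, 10.66 and 11.18 in cetrorelix cells and 11.74, 11.76 and 11.66 in control cells. The conditions did not overlap, and the log2 ratio was -0.68 ± 0.37 (limma adjusted p = 0.182), below 0 on 6 of 6 arrays. TCP1, the alpha subunit, had 11.83, 11.59 and 11.72 in cetrorelix cells and 12.40, 12.50 and 11.93 in control cells. Here too the conditions were separate and 6 of 6 arrays were below 0, at a log2 ratio of -0.57 ± 0.36 (limma adjusted p = 0.241). CCT4, the delta subunit, had 12.27, 12.23 and 12.70 in cetrorelix cells and 12.69, 12.99 and 12.75 in control cells. Its highest cetrorelix level exceeded the lowest control level by a small margin, and its log2 ratio was -0.41 ± 0.36 (limma adjusted p = 0.413). In replicate 3 the CCT4 ratio was only -0.05.

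The remaining subunits did not pass even the unadjusted threshold, and they are named here to complete the ring. The log2 ratio of CCT8 was -0.49 ± 0.64, with -0.54, -1.12 and 0.17 in replicates 1, 2 and 3, and its mean was 0.02 on the Cy5 slide and -1.01 on the Cy3 slide. CCT2, the chaperonin probe of highest intensity, had levels of 13.91, 13.46 and 14.20 in cetrorelix cells and 14.11, 14.18 and 13.92 in control cells, which overlapped (log2 ratio -0.21 ± 0.50). CCT5 lay at -0.20 ± 0.20, CCT6B at -0.18 ± 0.41 and CCT7 at 0.26 ± 0.46. CCT7 had a second probe at -0.04. The other tested CCT6B probes were near background, with mean log2 intensities of 7.86 and 8.02 against 12.27 for the probe used. They lay at -0.22 and -0.04. CCT6B is a paralogue of CCT6A, and whether the probes of one also take up the transcript of the other was not tested.

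Set side by side, 7 of the 8 subunits other than CCT3 lay below 0, with a median of -0.31, and their replicate medians were -0.44, -0.74 and -0.08. CCT3 had the highest ratio of the 9 genes on 5 of 6 arrays and the second highest on the Cy5 slide's array of replicate 3. The median of the 9 genes was -0.21, against -0.01 for all tested genes.

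**Figure D1:**
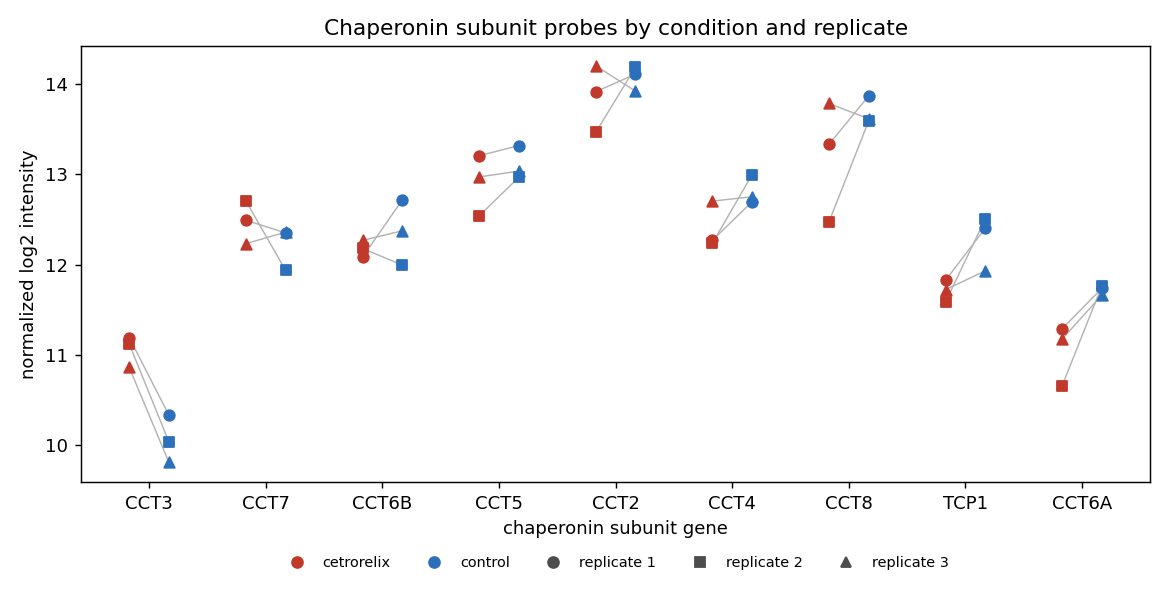
Normalized log2 intensity (y axis) of the probe of each of the 9 chaperonin genes (x axis), with cetrorelix on the left (red) and control on the right (blue), 1 symbol shape per replicate and a line joining the conditions of a replicate. Lines slope downward from cetrorelix to control in all replicates for CCT3 and upward in all replicates for CCT6A, TCP1, CCT4 and CCT5. Heights of different probes are not comparable.

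HSP70 and HSP110 genes went both ways. HSPA4, an HSP110-type exchange factor of HSP70, had levels of 10.32, 10.26 and 10.26 in cetrorelix cells and 9.65, 9.68 and 10.06 in control cells. The conditions did not overlap, and the log2 ratio was 0.49 ± 0.26 (limma adjusted p = 0.267). The slide means of HSPA4 were 0.86 (Cy5) and 0.11 (Cy3). HSPA9, the HSP70 of mitochondria, which pulls proteins through the inner membrane, had 10.58, 10.38 and 11.04 in cetrorelix cells and 10.95, 11.07 and 11.19 in control cells. The log2 ratio of HSPA9 was -0.41 ± 0.27 (limma adjusted p = 0.374), with overlapping levels and slide means of -0.05 and -0.77.

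HSPA8, the constitutive cytosolic HSP70 and the HSP70 probe of highest intensity, had 15.22, 14.67 and 15.54 in cetrorelix cells and 15.43, 15.53 and 15.39 in control cells. Replicate 2 had the lowest ratio, replicate 3 lay above 0, and the log2 ratio was -0.30 ± 0.51 (limma adjusted p = 0.707). The stress-inducible HSPA1A had overlapping levels and a ratio of 0.20 ± 0.33, with a second probe at 0.34. The 9 genes of this branch that did not pass the unadjusted threshold ranged from -0.40 to 0.20.

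The cytosolic HSP90 genes showed no separation of the conditions. HSP90AB1, the constitutive form, had levels of 13.47, 13.02 and 13.68 in cetrorelix cells and 13.56, 13.78 and 13.60 in control cells, at a log2 ratio of -0.26 ± 0.45 (limma adjusted p = 0.748). HSP90AA1, the inducible form, had 15.38, 14.88 and 15.33 in cetrorelix cells and 15.40, 15.14 and 14.89 in control cells, at 0.05 ± 0.35 (limma adjusted p = 0.974). Both genes had their lowest ratio in replicate 2 and their highest in replicate 3.

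The mitochondrial chaperonin pair differed in spread. HSPD1, the barrel, had levels of 14.01, 13.28 and 14.05 in cetrorelix cells and 14.43, 14.18 and 13.47 in control cells. Its replicate ratios were -0.41, -0.90 and 0.58, so the log2 ratio of -0.25 ± 0.75 (limma adjusted p = 0.853) had no common sign, and a second, dimmer probe lay at 0.23, as the average of -1.51 on the Cy5 slide and 1.97 on the Cy3 slide. HSPE1, the lid, had 12.10, 11.71 and 11.99 in cetrorelix cells and 12.23, 11.87 and 12.16 in control cells. Its 3 replicate ratios were close together (-0.15 ± 0.02, limma adjusted p = 0.828), but this average joined ratios above 0 on all 3 arrays of 1 slide and below 0 on all 3 of the other. HSPD1 and HSPE1 are neighbours in the ARS-UCD2.0 gene table, and their ratios had the same sign in replicates 1 and 2 and opposite signs in replicate 3.

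Of 3 tested small heat shock proteins, HSPB1 was higher at the unadjusted threshold. HSPB1 binds unfolding proteins and actin filaments. Its levels were 12.61, 12.81 and 12.61 in cetrorelix cells and 12.52, 11.73 and 11.35 in control cells. The cetrorelix levels were nearly equal, the control levels were spread, and the conditions did not overlap. The log2 ratio was 0.81 ± 0.63, or 1.76-fold (limma adjusted p = 0.209), and above 0 on 5 of 6 arrays. A second HSPB1 probe lay at 0.84 ± 0.76, with overlapping levels. They were 11.96, 12.27 and 11.50 in cetrorelix cells and 11.98, 10.87 and 10.35 in control cells, so both conditions were spread on this probe. In replicate 1 the ratio was 0.09 for the main probe and -0.02 for the second. The slide means of HSPB1 were 0.24 (Cy5) and 1.39 (Cy3). HSPB8 and HSPB9 were near background and lay at 0.07 ± 0.23 and -0.03 ± 0.34.

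BAG3, the BAG protein that joins HSP70 and HSPB8 in the autophagy of damaged proteins, had levels of 10.20, 9.95 and 9.04 in cetrorelix cells and 9.22, 9.04 and 9.005 in control cells. Replicates 1 and 2 stood well above control and replicate 3 did not, with ratios of 0.98, 0.92 and 0.04. The log2 ratio was 0.64 ± 0.53, or 1.56-fold (limma adjusted p = 0.254), above 0 on 6 of 6 arrays. Its adjusted p was 0.746, 0.343 and 0.0191 without replicate 1, 2 and 3, and only the last of the 16 alternatives run brought it under 0.05. BAG2, the BAG probe of highest intensity, had 11.46, 10.52 and 11.38 in cetrorelix cells and 11.64, 11.38 and 11.54 in control cells, at -0.40 ± 0.40 (limma adjusted p = 0.468). BAG2 restrains the ubiquitin ligase STUB1. Its other 2 tested probes lay at -0.07 and -0.02. BAG1, BAG4 and BAG5 lay at 0.28 ± 0.17, -0.07 ± 0.31 and 0.01 ± 0.38.

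The heat shock factors were near background. HSF1 exceeded background on 4 arrays for cetrorelix and 1 for control, and had levels of 7.86, 8.06 and 7.76 against 7.62, 7.85 and 7.75 in control cells. Its log2 ratio was 0.15 ± 0.13 (limma adjusted p = 0.832). HSF2, a factor that can pair with HSF1, had 7.42, 7.97 and 8.07 in cetrorelix cells and 8.10, 8.20 and 8.07 in control cells, at -0.30 ± 0.35 (limma adjusted p = 0.609). HSF2 did so on 4 arrays for cetrorelix and 6 for control. These probes measure transcripts and not the activity of the factors.

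**Figure D2:**
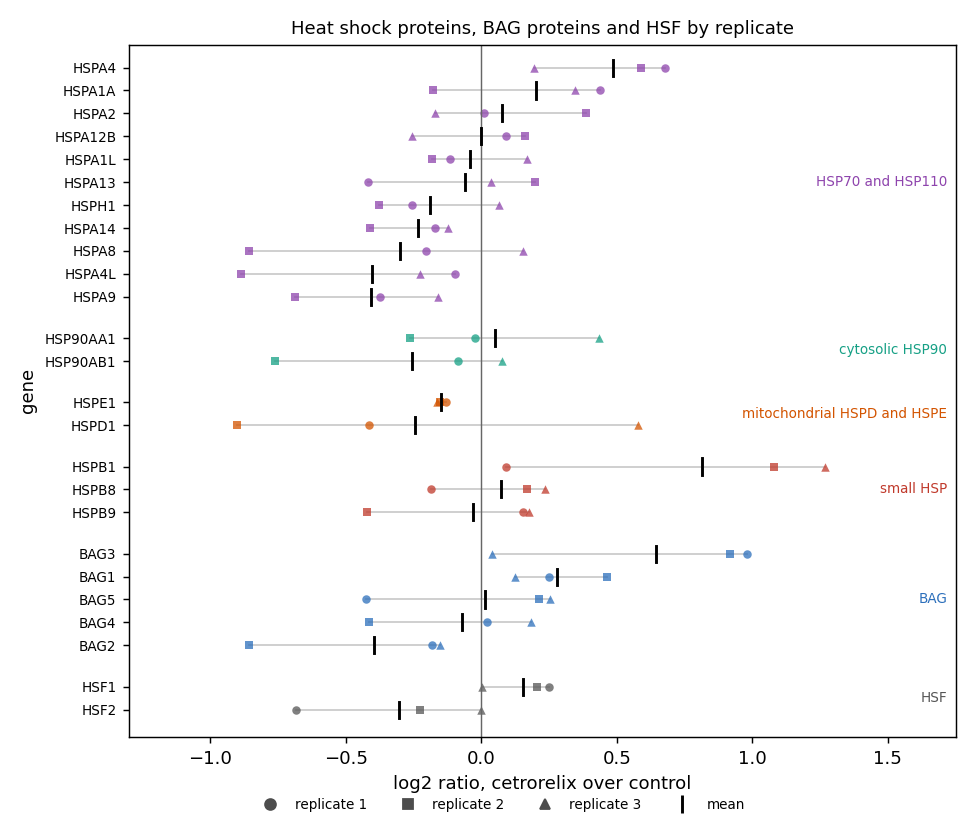
Log2 ratio of cetrorelix over control (x axis) for each tested heat shock protein, BAG and HSF gene (y axis), with 1 symbol per replicate, a grey line over their range and a black bar at the mean. HSPB1, BAG3 and HSPA4 have means of 0.81, 0.64 and 0.49 with all 3 replicates above 0, and HSPA9 has a mean of -0.41 with all 3 below.

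J proteins had 33 tested genes, of which 0 were higher and 5 were lower at the unadjusted threshold, where 7.18% and 8.55% of all genes were. Their median log2 ratio was -0.05. All 5 belonged to classes A and C. DNAJC2, a ribosome-bound J protein that meets nascent chains, had levels of 12.06, 11.52 and 11.78 in cetrorelix cells and 12.30, 12.68 and 12.23 in control cells. The conditions did not overlap, and the log2 ratio was -0.62 ± 0.48, below 0 on 6 of 6 arrays (limma adjusted p = 0.254). DNAJC10, a disulfide reductase of the endoplasmic reticulum, had 11.83, 11.30 and 11.99 in cetrorelix cells and 12.33, 12.39 and 11.99 in control cells. In replicate 3 both levels were 11.99, and the log2 ratio was -0.53 ± 0.54 (limma adjusted p = 0.371). A second DNAJC10 probe of similar intensity lay at -0.64 ± 0.28.

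Of the J proteins of the mitochondrial inner membrane, DNAJC19 and DNAJC15 were lower at the unadjusted threshold and DNAJC30 was not, at -0.03 ± 0.31. DNAJC19, part of the protein import motor, had 9.23, 9.49 and 9.38 in cetrorelix cells and 9.60, 9.80 and 10.01 in control cells. All control levels were above all cetrorelix levels, the ratio was below 0 on 6 of 6 arrays, and the log2 ratio was -0.44 ± 0.17 (limma adjusted p = 0.289). DNAJC19 had slide means of -0.48 and -0.40, close to each other. DNAJC15, a relative of DNAJC19, had 8.63, 9.19 and 9.03 in cetrorelix cells and 8.81, 9.91 and 9.29 in control cells. Its levels overlapped between conditions because the replicates differed in level, while its ratio was below 0 on 6 of 6 arrays (-0.39 ± 0.29, limma adjusted p = 0.418). DNAJC15 had slide means of -0.09 (Cy5) and -0.68 (Cy3). The 5 tested probes of DNAJC15 ranged from -0.48 to -0.08. The probe nearest in mean log2 intensity (9.170, against 9.175 for the probe used) lay at -0.10.

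DNAJA2, a general cytosolic partner of HSP70, had levels of 11.09, 10.53 and 11.11 in cetrorelix cells and 11.41, 11.62 and 11.16 in control cells. The conditions were separate by a narrow margin, and the log2 ratio was -0.49 ± 0.53, with -1.09 in replicate 2 (limma adjusted p = 0.415). DNAJA3, a J protein of the mitochondrial matrix and the class A probe of highest intensity, had 11.98, 12.13 and 11.75 in cetrorelix cells and 11.60, 11.77 and 11.57 in control cells, at 0.30 ± 0.12 (limma adjusted p = 0.501). Its 3 tested probes disagreed, with the others at -0.15 and -0.37.

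In class B, 0 of 7 tested genes passed the unadjusted threshold. DNAJB1, the stress-inducible partner of HSP70, had levels of 9.53, 10.40 and 9.77 in cetrorelix cells and 9.66, 9.36 and 9.39 in control cells. Replicates 2 and 3 were above control and replicate 1 below, and the log2 ratio was 0.43 ± 0.59 (limma adjusted p = 0.533). The slide means of DNAJB1 were -0.09 and 0.95, and its other 2 probes lay at 0.31 and 0.01. DNAJB6, which keeps aggregating proteins in solution and had the highest intensity of class B, had overlapping levels and a ratio of -0.11 ± 0.42. DNAJC8, a J protein associated with splicing and the brightest class C probe, had 15.04, 15.52 and 15.13 in cetrorelix cells and 15.04, 14.78 and 15.28 in control cells, at 0.20 ± 0.48 (limma adjusted p = 0.843). The 19 class C genes that did not pass ranged from -0.42 to 0.33.

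The untested pair DNAJB12 and DNAJB14 can be given only where both arrays of a replicate were unmarked. DNAJB12 had log2 ratios of -0.04 and -0.44 in replicates 1 and 3, and DNAJB14 had 0.16 and -0.06. Of the 21 genes with several tested probes, 8 had probes on both sides of 0.

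**Figure D3:**
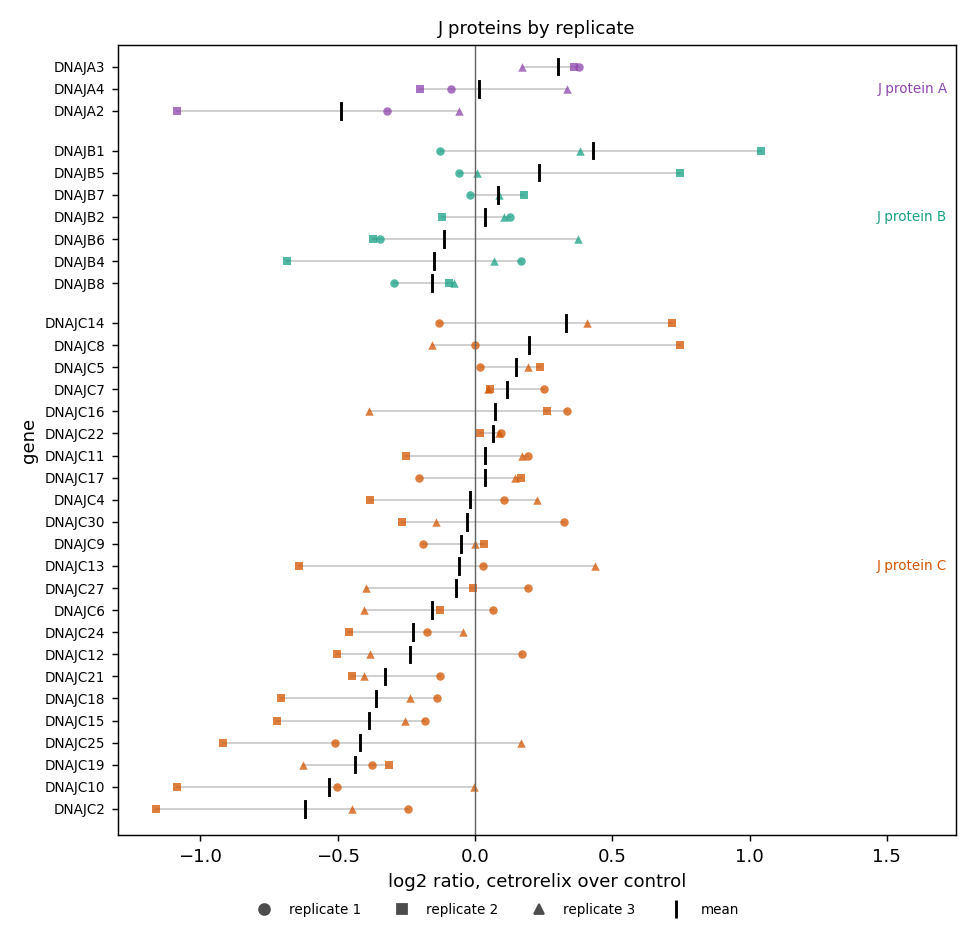
Log2 ratio of cetrorelix over control (x axis) for each of the 33 tested J protein genes (y axis) by class, with 1 symbol per replicate, a grey line over their range and a black bar at the mean. DNAJC2, DNAJC10 and DNAJC19 lie lowest in class C, with means of -0.62, -0.53 and -0.44, and replicate 2 (square) is the lowest point of DNAJC2, DNAJC10 and DNAJA2.

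Group medians are given here by slide, where all tested genes had -0.04 on the Cy5 slide and -0.002 on the Cy3 slide. Heat shock proteins had a median of 0.10 on the Cy5 slide and -0.16 on the Cy3 slide, with -0.05 for the average. Chaperonin genes had -0.19 and -0.30, and J proteins -0.01 and -0.10. BAG genes had -0.12 and 0.15. From the Cy3 slide alone, 5 genes passed limma's adjusted p under 0.05, namely CCT3 (1.26), HSPB1 (1.39), DNAJB1 (0.95), CCT6A (-0.96) and DNAJC25 (-1.13). From the Cy5 slide alone 0 passed, where 3 were higher and 3 lower at an unadjusted p under 0.05. DNAJC25 averaged 0.30 on the Cy5 slide. Its replicate ratios were -0.51, -0.92 and 0.17, with a mean of -0.42 that did not pass the unadjusted threshold. For 3 genes, HSPA14, HSPE1 and DNAJC5, the 3 arrays of one slide lay on the opposite side of 0 from the 3 of the other (4.48%, against 8.91% of all genes). Across the array, 1134 probes passed adjusted p from the Cy3 slide alone and 516 from the Cy5 slide alone, and at unadjusted p 6.75% of all genes were higher and 8.91% lower on the Cy5 slide. The difference between slides was not tested.

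**Figure D4:**
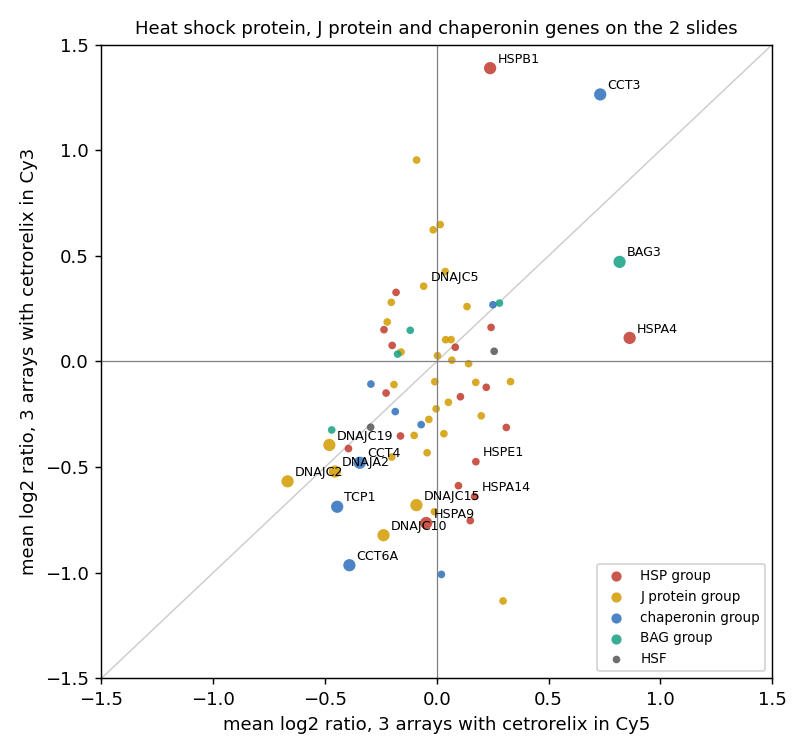
Mean log2 ratio of each of the 67 tested genes on the 3 arrays of the Cy5 slide (x axis) and the 3 of the Cy3 slide (y axis), coloured by group, with large points for the 13 genes at an unadjusted p under 0.05. CCT3 (0.73 and 1.26) and BAG3 (0.82 and 0.47) lie above 0 on both slides, whereas HSPA14 and HSPE1 lie above 0 on the first slide and below 0 on the second.

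Cochaperones outside the symbol rule were read from a list of 30 genes that act with HSP70, HSP90 or the chaperonin, of which 28 were tested. At the unadjusted threshold 1 was higher and 4 were lower, where 7.18% and 8.55% of all genes were, and the median log2 ratio was -0.03. PTGES3, the HSP90 cochaperone p23, had levels of 11.97, 11.41 and 11.53 in cetrorelix cells and 12.77, 12.32 and 12.32 in control cells. The conditions did not overlap, and the log2 ratio was -0.83 ± 0.07, below 0 on 6 of 6 arrays (limma adjusted p = 0.0833). The other tested PTGES3 probes lay at -0.67 and -0.07. Prefoldin, which hands actin and tubulin to the chaperonin, had PFDN6 at -0.64 ± 0.48 and PFDN2 at -0.59 ± 0.43 (limma adjusted p = 0.241 and 0.255), each from its brightest probe, and the other PFDN6 probes lay at -0.18 and -0.23. PFDN1, also lower at the unadjusted threshold and named after its value was seen, lay at -0.53 ± 0.64 (limma adjusted p = 0.420). Its replicate ratios were -1.20, 0.07 and -0.47, and its slide means were -0.08 (Cy5) and -0.99 (Cy3). The other tested PFDN1 probes lay at -0.23 and -0.10. PDCL, a phosducin-like partner of the chaperonin, lay at 0.54 ± 0.59 (limma adjusted p = 0.392), with -0.14 in replicate 2.

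Markers of the labelled cell type were present, and 8 of 11 granulosa and cumulus markers were above background throughout. Their summed intensity ranged from 140776 to 163436 in cetrorelix cells and from 115763 to 123623 in control cells. This sum is on the linear scale, so the brightest probes weigh most. INHBA, INHA and GATA4 had mean log2 intensities of 15.67, 15.57 and 14.46, followed by AMH at 11.08. At an unadjusted p under 0.05, 4 (AMH, CYP11A1, GATA4 and INHA) were higher, where 7.18% of all genes were. The median log2 ratio of these 11 markers was 0.07. FSHR (-0.37 ± 0.37) and INHBA (-0.33 ± 0.29) had all cetrorelix levels below all control levels without passing that threshold. INHBA lay above 0 on every array of the Cy5 slide (mean 0.37) and below 0 on every array of the Cy3 slide (mean -1.02). Theca and stromal markers (6 of 7 tested) summed to 11891 to 14374 in cetrorelix cells and 9485 to 11097 in control cells. Their median log2 ratio was 0.03, with 3 above 0 and 3 below. ACTA2 was the brightest of them, at a mean log2 intensity of 13.03, followed by PDGFRA at 10.86. ACTA2 was higher at the unadjusted threshold (log2 ratio 0.48 ± 0.16), with slide means of -0.10 (Cy5) and 1.06 (Cy3). Leukocyte markers (4 of 7 tested) summed to 1077 to 1200 in cetrorelix cells and 1025 to 1237 in control cells, and endothelial markers (4 of 6) to 902 to 978 and 933 to 980. Oocyte markers (4 of 7) summed to 1190 to 1590 in cetrorelix cells and 1191 to 1322 in control cells, and erythrocyte markers (4 of 5) to 1206 to 1901 and 1144 to 1308. Within these lists TYROBP, DCN, GDF9 and ZP4 were above background on no array. The leukocyte markers PTPRC and CD68 and the stromal markers ACTA2, COL1A1 and PDGFRA each had a probe above background on all 6 arrays in both conditions. So did the oocyte marker KPNA7 and the erythrocyte markers AHSP, GYPC and HBA. What part the differences in these marker sums had in the ratios above was not tested.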

How the data were processed

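Per the file headers, the deposited spot files give median raw and local background intensity of each spot for Cy3 and Cy5, and the authors also deposited log2 ratios, made with limma per the submitters' processing notes, with settings not given in the sources used here. From the intensities, background was corrected by normexp (offset 50) and log2 ratios by loess within arrays. A channel was above background where it exceeded the 95th percentile of 153 negative controls. Testing took the 32125 of 43794 gene probes that exceeded background for either condition on 3 or more arrays and were unmarked on all 6. The arrays of a replicate number, a dye swap per the design text, were averaged. Limma (3.58.1, under R 4.3.3) compared the mean of the 3 resulting values with 0 in a two-sided test, and p-values were adjusted by Benjamini-Hochberg across the tested probes. Arrays have no read depth, and their number limits the precision. Equal numbers went together: deviations from the slide mean correlated at 0.23, 0.40 and 0.42 between the arrays of replicates 1, 2 and 3. Between arrays of unequal number on different slides they correlated at -0.34 to -0.05. Deviations within a slide sum to 0, so these correlations are not independent of each other. The within-replicate correlation that limma estimated without a slide term was -0.026. Levels per condition come from loess and Aquantile. Symbols are those of the platform annotation, updated through the ARS-UCD2.0 gene table (20025 current, 1524 through a synonym, 241 as listed).

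Genes named with values were those at an unadjusted p under 0.05 or, failing that, of lowest p in each subgroup, the brightest probe of each subgroup, HSF1, HSF2 and 4 cochaperones of lowest p. HSPA1A, HSPB8, HSPB9, BAG1, BAG4, BAG5, the remaining CCT genes, DNAJC25, PFDN1, ACTA2 and genes with opposite slides were added after their values were seen. Ratios of DNAJC30, DNAJB12, DNAJB14 and FSHR were also given outside that rule. The genes and lists were chosen with earlier results of these data known. Alternatives covered background, normalization, filter, probe rule, authors' values, replicate block, slide and leaving out each replicate.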

Additional observations from a re-analysis of the deposited data

Results flagged for a closer look

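For 3 of the 67 genes (4.48%, against 8.91% of all tested genes) every array of one slide lay on one side of 0 and every array of the other slide on the opposite side. HSPA14, a ribosome-associated HSP70 relative, averaged 0.17 on the Cy5 slide (cetrorelix in Cy5) and -0.64 on the Cy3 slide. HSPE1 averaged 0.17 on the Cy5 slide and -0.47 on the Cy3 slide. DNAJC5, a J protein of secretory vesicles, averaged -0.059 on the Cy5 slide and 0.36 on the Cy3 slide. The differences were not tested, and slide and dye cannot be told apart.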

How the results depend on the processing

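Where 4 of all probes passed adjusted p under 0.05, normexp with offset 16 gave 231, scaling between arrays 0, no filter on dim probes 7, probes above background on all 6 arrays 15, the authors' deposited values 9, the fit with replicate as a block 234, single arrays with no replicate block 194, the block with a dye term 768, the Cy5 slide alone 516 and the Cy3 slide alone 1134. Leaving out a replicate gave 0 to 1254. Of the heat shock network, 0 genes passed, but 1 (CCT3) passed with offset 16, with the replicate block and with no replicate block, 3 (CCT3, CCT6A and HSPB1) with the block and dye term, 5 from the Cy3 slide alone and 0 to 3 with a replicate left out, where BAG3 and CCT8 joined CCT3 without replicate 3. The 9 lower genes at unadjusted p became 16 under median centring, 4 among probes above background throughout, 15 with the block and dye term, 3 from the Cy5 slide alone and 3 to 14 with a replicate left out. The BAG median of 0.01 moved to 0.28 above background throughout, -0.12 on the Cy5 slide, 0.15 on the Cy3 slide, and -0.11 to 0.23 with a replicate left out. Limma's adjusted p for CCT3 ranged from 0.00243 to 0.649. All 13 genes named at unadjusted p kept their sign in the 16 alternatives. By limma's unadjusted p, CCT3 stayed under 0.05 in 16 of them and DNAJC15 in 7. The causes were not tested. Signal close to background limits HSF1, HSPB8 and HSPB9.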
